A study of Mus musculus with 12 samples.

Results

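The 35 genes described here encode the signalling chain that runs from the T cell antigen receptor to the nucleus: receptor chains and coreceptors, the kinases that act first, adaptors, the Ras and protein kinase C branches, calcineurin with its NFAT and NF-kB outputs, and the brakes on each step. They were taken as a named list from a table of read counts per gene symbol, with the condition that a gene's counts sum to 10 or more over all libraries, and the rule uses no difference between groups. All 35 of the 35 listed genes met this condition, out of 26485 gene rows in the table. All 35 also had at least 10 counts in at least 3 libraries and so belonged to the 7465 genes tested.

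When the receptor binds antigen, LCK phosphorylates the CD3 and zeta chains, ZAP70 docks on them and phosphorylates the scaffold LAT, and LAT and SLP-76 gather PLCG1, VAV1, GRB2 and GADS. PLCG1 then makes a pair of second messengers. One releases calcium, which switches on calcineurin and NFAT, and the other, diacylglycerol, recruits RASGRP1 and protein kinase C theta, which lead to the MAP kinases and to NF-kB. Phosphatases, CSK, ubiquitin ligases and diacylglycerol kinases oppose these steps and set the threshold at which a T cell responds.

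The libraries came from CD4+ T cells of C57BL/6 mice that had been immunised with alum and then dosed by mouth for 7 days with vehicle or with 25 mg/kg of 4EGI-1. This compound inhibits the translation factor eIF4E, which binds the cap of mRNAs, and it was given to the whole animal, so that the sorted cells were not its only target. Each arm was sequenced as total mRNA, called input, and as RNA from the heavy polysome fractions of a sucrose gradient, where mRNAs that carry many ribosomes sediment. Both arms, labelled OA and 4E, have 3 libraries in each fraction, which makes 4 groups, and the labels do not write out OA or 4E. Here 4E stands for the mice taken to have had the inhibitor, and OA for those with vehicle. No label states that replicates were separate animals, so every p-value below measures the spread between these libraries, which may be technical.

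Reads counted in genes numbered 691449 to 1906657 per library, but small noncoding RNAs took 33.6% to 78.3% of them in input and 3.14% to 16.9% in heavy, so that 234469 to 1846778 counts per library were left for other genes. The listed genes received 2121 to 20845 counts per library, 0.867% to 1.13% of the counts outside small noncoding RNAs. OA replicate 1 stood apart in both fractions. It had the most counts outside small noncoding RNAs, 1258672 in input against 324535 and 305469 in OA replicates 2 and 3. In heavy it had 1846778 against 863979 and 775599. Its input library had 33.6% small noncoding RNA against 74.9% and 70.98% in OA input replicates 2 and 3, and its heavy library had 3.14% against 9.70% and 12.03%. The arm means of this share in input were 59.8% ± 22.8 for OA and 76.6% ± 1.58 for 4E (SD, n = 3 libraries). Every 4E input library lay above every OA input library, but by a narrow gap. The 4E input libraries had 75.1%, 78.3% and 76.4%, where OA input replicate 2 had 74.9%. In heavy the share was 8.29% ± 4.61 for OA and 14.01% ± 3.18 for 4E. Exact two-sided permutation tests gave p = 0.1 in input and 0.2 in heavy, of which 0.1 is the smallest possible. Its part in the differences between arms was not tested. Levels are counts-per-million (CPM) after scaling by TMM factors, which hold the bulk of genes level between libraries. A count of 0 allows up to 3 counts, or 0.781 to 6.82 CPM depending on the library, for counting error only. The table uses human-style symbols, so levels are compared between libraries and not between genes. RNA from bulk samples cannot tell fewer cells of a type apart from less RNA per cell.

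The label of the cells was checked against marker genes. Of 18 T cell markers 15 were in the table and 14 had a read. CD3D was at 0 in all 12 libraries, and CD4, the surface protein by which the cells were sorted, had 100 counts in all. Of 12 markers of CD8 T and natural killer cells 11 were in the table. CD8B, KLRD1, KLRK1, NCR1 and KLRB1 were at 0 and CD8A at 3 counts, while EOMES had 167 counts, and the list summed to 8.09 to 24.3 CPM per library. Since CD3D was also at 0 in T cells, a gene listed at 0 in this table is not shown to be absent. The B cell list summed to 141 to 450 CPM over the libraries.

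Promoters are shown for the CD3 epsilon and gamma chains, whose levels differed most widely between libraries, and for the kinases LCK and ZAP70, which varied less, so that the DNA in front of both kinds of gene can be compared. Each is the RefSeq window of 300 bases on build GRCm38.p6, 250 before and 50 after an annotated start. Windows on that build were found for 29 of the 35 genes, and none for CD4, CD28, MALT1, NFATC1, NFKB1 and PPP3CA. Capitals mark the ETS core GGAA and the RUNX core TGNGGT on either strand, motifs of transcription factor families known for their part in T cells. They stand 5′ to 3′ on the gene's own strand.
Cd3e, chr9:45009562-45009861, minus strand: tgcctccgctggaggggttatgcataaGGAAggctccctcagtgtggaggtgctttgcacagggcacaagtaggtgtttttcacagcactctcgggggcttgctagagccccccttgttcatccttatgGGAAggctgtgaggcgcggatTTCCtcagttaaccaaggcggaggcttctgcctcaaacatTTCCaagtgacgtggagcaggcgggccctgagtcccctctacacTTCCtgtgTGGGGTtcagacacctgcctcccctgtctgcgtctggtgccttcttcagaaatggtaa
Cd3g, chr9:44980382-44980681, minus strand: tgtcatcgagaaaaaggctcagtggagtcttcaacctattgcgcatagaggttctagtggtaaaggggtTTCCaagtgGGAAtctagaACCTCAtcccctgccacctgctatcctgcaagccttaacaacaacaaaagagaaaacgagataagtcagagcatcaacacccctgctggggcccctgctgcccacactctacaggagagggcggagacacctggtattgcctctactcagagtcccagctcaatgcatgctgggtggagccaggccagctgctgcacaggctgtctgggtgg
Lck, chr4:129573592-129573891, minus strand, 1 of 2 annotated windows: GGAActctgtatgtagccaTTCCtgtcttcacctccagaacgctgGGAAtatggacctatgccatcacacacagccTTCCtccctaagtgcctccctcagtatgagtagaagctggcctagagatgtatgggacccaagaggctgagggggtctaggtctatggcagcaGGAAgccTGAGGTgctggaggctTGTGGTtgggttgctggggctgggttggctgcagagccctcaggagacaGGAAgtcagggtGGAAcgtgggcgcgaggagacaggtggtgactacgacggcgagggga
Zap70, chr1:36761548-36761847, plus strand, 1 of 3 annotated windows: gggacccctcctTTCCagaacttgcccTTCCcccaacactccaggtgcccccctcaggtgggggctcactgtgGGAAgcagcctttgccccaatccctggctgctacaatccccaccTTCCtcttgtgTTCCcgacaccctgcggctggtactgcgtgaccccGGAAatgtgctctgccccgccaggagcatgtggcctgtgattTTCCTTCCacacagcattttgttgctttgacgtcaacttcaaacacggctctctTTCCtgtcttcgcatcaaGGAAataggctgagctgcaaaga
The windows of Cd3e, Cd3g, Lck and Zap70 held GGAA 5, 2, 7 and 10 times and TGNGGT 1, 1, 2 and 0 times. TATAAA was in none of these 4 windows. The 29 genes had 42 windows, of which the first listed for each gene was used. Of these genes, 93.1% had a GGAA, 55.2% a TGNGGT and 13.8% a TATAAA, against 96.0%, 45.8% and 13.6% of all 32851 windows. The latter shares count every window, also where a gene has more than 1, so they are not shares of genes. A match of letters is a description and shows no binding.

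In total mRNA, ZAP70 had a higher mean level in 4E than in OA and CD28, CD3E and MALT1 had lower ones, but none of the 35 genes passed the test. Of the 35 genes, 17 had a higher and 18 a lower level in 4E input than in OA input, where 47.0% of all tested genes were higher. The median log2 change of the 35 was -0.01 where all tested genes had -0.05. Without CD4, whose fitted change rests on libraries at 0, the counts were 17 and 17 and the median 0.0036. edgeR's quasi-likelihood test with Benjamini-Hochberg adjustment over 7465 genes called 0 of the 35, and 0% of all genes. DESeq2 also called 0 of the 35, and 0.0402% of all genes. At an unadjusted p under 0.05 there were 3 of the 35 (ZAP70, CD28 and CD4), and 10.5% of all genes. The changes of 27 of the 35 were under 0.5 on the log2 scale.

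In heavy polysome RNA, too, none of the 35 genes passed the threshold for 4E against OA. Higher levels in 4E were found for 20 of the 35 genes and lower levels for 15, where 49.8% of all genes were higher. The median log2 change of the 35 was 0.12 against -0.0023 over all genes (20, 14 and 0.12 without CD4). edgeR and DESeq2 each called 0 of the 35, and 0% and 0.0134% of all genes. At an unadjusted p under 0.05 there were 4 of the 35 (ZAP70, PPP3CA, GRAP2 and MALT1), and 8.21% of all genes. In 7 genes every 4E heavy library lay above every OA heavy library: LCK, ZAP70, PLCG1, GRAP2, BCL10, PPP3CA and NFKB1. That is 7 of 35, where 9% of all genes did so, and 0 of the 35 were separated the other way, as 8.12% of all genes were. In input the separated genes were PLCG1, NFATC2 and RELA on the higher side (6.23% of all genes) and CD28 and FYN on the lower side (7.56% of all genes).

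**Figure D1:**
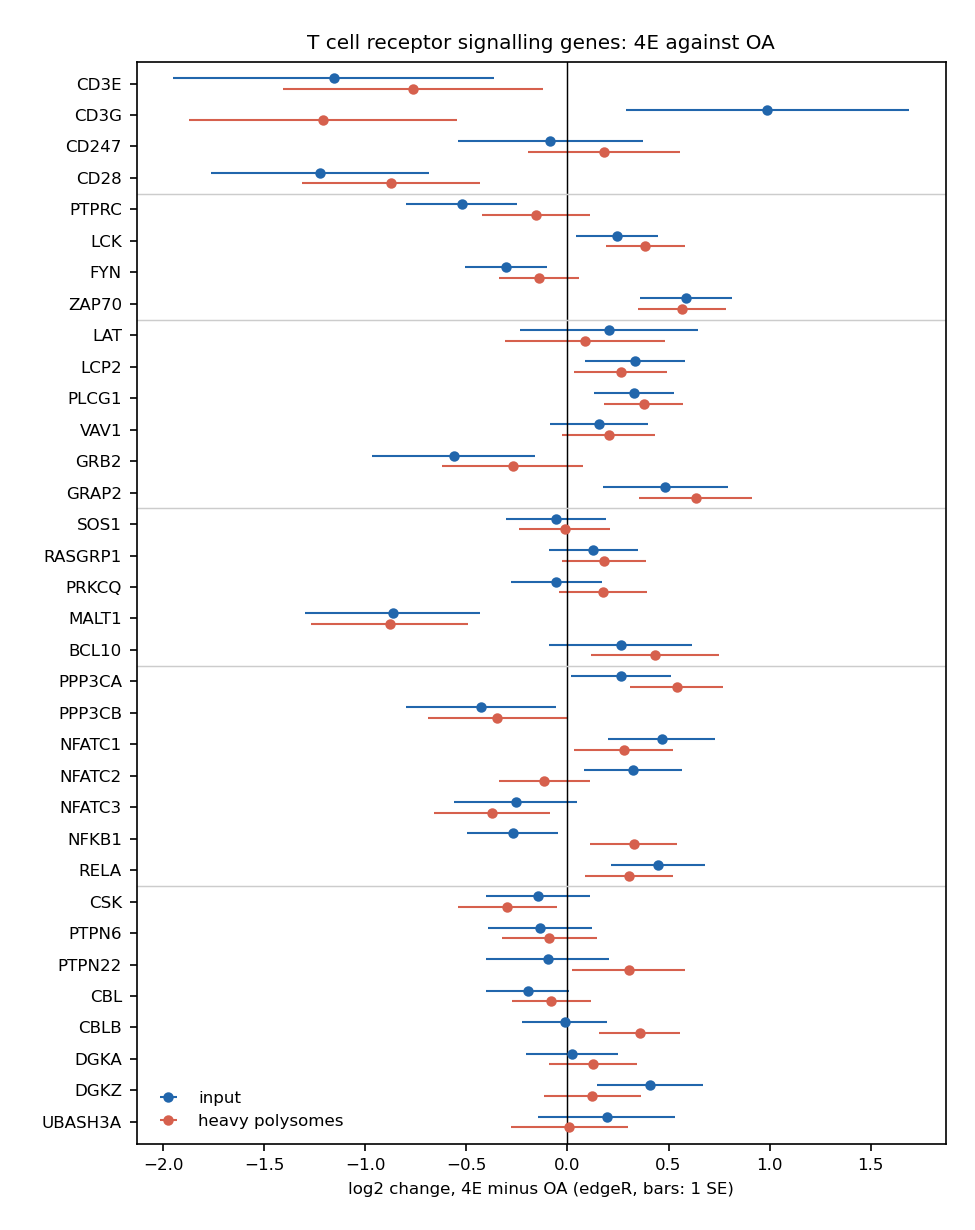
Log2 change of 4E against OA for 34 of the 35 genes in input and in heavy polysome RNA, ordered by step of the pathway, with bars of 1 standard error from the edgeR fit; CD4 is left out because its 4E input libraries are at 0. ZAP70 lies at 0.59 and 0.57, CD28 at -1.23 and -0.87, and the receptor chains have the widest bars.

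On the receptor side, CD4, CD3G, CD28 and CD247 had the fewest counts of the 35 genes, and CD3E had a wide spread between replicates. CD3E, a signalling chain of the receptor, read 82.8, 11.4 and 15.4 CPM in OA input and 34.8, 13.6 and 6.62 CPM in 4E input. In heavy it read 112, 41.5 and 17.4 CPM in OA and 52.9, 33.0 and 15.2 CPM in 4E. Replicate 1 was the highest of its group in all 4 groups, and the arms overlapped in both fractions. The log2 changes were -1.16 (SE 0.79) in input and -0.77 (SE 0.64) in heavy, and without OA replicate 1 in both fractions they were 0.45 (SE 0.68) and 0.17 (SE 0.47). The sign of the CD3E change thus rested on that replicate.

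CD3G, the gamma chain, read 21.8, 0 and 6.82 CPM in OA input and 19.6, 22.7 and 26.5 CPM in 4E input. In heavy the order of the arms was turned, with 26.04, 8.97 and 13.5 CPM in OA and 5.602, 6.22 and 9.85 CPM in 4E. The 4E input libraries lay close together, while the OA input libraries ran from 0 counts to above the lowest 4E library. Log2 changes were 0.99 (SE 0.70) in input and -1.21 (SE 0.66) in heavy. Without OA replicate 1 the change in input was 2.72 (SE 0.90, adjusted p = 0.303 by edgeR) and in heavy -0.67 (SE 0.66). Only 257 counts of CD3G were found in the 12 libraries.

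CD247, the zeta chain that carries most of the docking sites for ZAP70, read 32.1, 6.51 and 30.7 CPM in OA input and 26.1, 18.2 and 24.3 CPM in 4E input. Heavy levels were 40.1, 28.6 and 29.6 CPM in OA and 30.5, 44.1 and 37.6 CPM in 4E. OA input replicate 2 alone was low, and the arms overlapped in both fractions (log2 changes -0.08, SE 0.46, and 0.18, SE 0.38).

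CD4, which binds MHC class II and brings LCK to the receptor, had counts of 25, 0 and 4 in OA input and of 0 in each 4E input library. In heavy the counts were 44, 7 and 1 in OA and 15, 0 and 4 in 4E. As levels the OA input libraries read 9.90, 0 and 6.82 CPM, and the 4E input libraries allow up to 6.52 to 6.82 CPM. The heavy libraries read 11.5, 3.93 and 0.644 CPM in OA and 9.34, 0 and 3.58 CPM in 4E. In input OA replicate 1 lay above the limit of the 4E libraries and replicates 2 and 3 did not lie clear of it, so that no difference between arms was detectable at this depth, and no fold is given.

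CD28, the main costimulatory receptor, read 37.2, 19.5 and 17.1 CPM in OA input and 13.04, 6.82 and 13.2 CPM in 4E input. Heavy levels were 40.9, 19.6 and 15.5 CPM in OA and 18.1, 13.1 and 10.7 CPM in 4E. Every 4E input library was below every OA input library, and in heavy the arms overlapped. The log2 change was -1.23 (SE 0.54, adjusted p = 0.438 by edgeR) in input and -0.87 (SE 0.44, adjusted p = 0.613) in heavy. Without OA replicate 1 these values were -0.73 (SE 0.63) and -0.35 (SE 0.50).

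**Figure D2:**
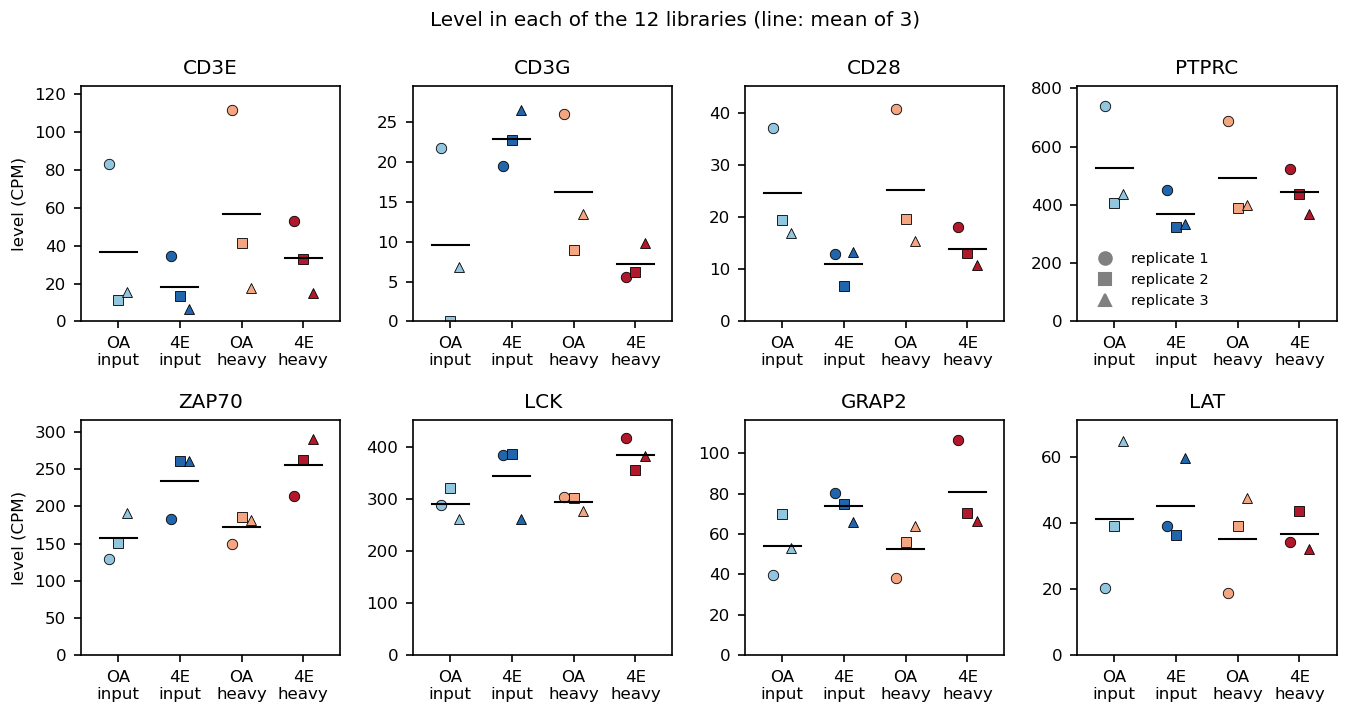
Levels in CPM of CD3E, CD3G, CD28, PTPRC, ZAP70, LCK, GRAP2 and LAT in the 12 libraries, by group, with each point 1 library and the bar the group mean. CD3E, CD28 and PTPRC are highest in OA replicate 1, and ZAP70 reads 150 to 186 CPM in OA heavy and 215 to 290 CPM in 4E heavy.

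Among the kinases and CD45, ZAP70 and LCK were higher in 4E and PTPRC and FYN lower, none past the threshold. ZAP70, the kinase that carries the signal from the chains to LAT, read 130, 151 and 191 CPM in OA input and 183, 261 and 261 CPM in 4E input. Its heavy levels were 150, 186 and 182 CPM in OA and 215, 262 and 290 CPM in 4E. In heavy the arms did not overlap, and in input 1 library of 4E lay below the highest OA library. Mean levels were 157 ± 31.0 and 235 ± 45.3 CPM in input and 173 ± 19.9 and 256 ± 38.1 CPM in heavy (SD, n = 3). The log2 change was 0.59 in input (SE 0.23, adjusted p = 0.398 by edgeR) and 0.57 in heavy (SE 0.22, adjusted p = 0.569), the smallest p of the 35 genes in each of these comparisons. With OA replicate 1 left out of both fractions it was 0.45 (SE 0.21) and 0.44 (SE 0.19). Without composition scaling the sign in input turned, to -0.21, as did those of LCK (-0.61), LAT (-0.46) and NFATC1 (-0.30), where the median of all genes stood at -0.93, below each of them.

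LCK, the kinase that phosphorylates the receptor chains, read 289, 322 and 261 CPM in OA input and 385, 386 and 263 CPM in 4E input. In heavy it read 304, 302 and 278 CPM in OA and 418, 355 and 382 CPM in 4E. The heavy libraries of the arms were separated, and in input 4E replicate 3 lay among the OA libraries. Log2 changes were 0.24 (SE 0.20) in input and 0.39 (SE 0.20, adjusted p = 0.614 by edgeR) in heavy. PTPRC, which encodes the phosphatase CD45 that keeps LCK ready to act, read 740, 407 and 437 CPM in OA input and 450, 325 and 333 CPM in 4E input. Heavy levels were 689, 391 and 398 CPM in OA and 522, 438 and 369 CPM in 4E. OA replicate 1 was far above its group in both fractions, and without it the change went from -0.52 (SE 0.27) to -0.20 (SE 0.19) in input and from -0.16 (SE 0.27) to 0.14 (SE 0.17) in heavy. FYN, a kinase related to LCK, was at 336 to 458 CPM in OA input and at 294 to 323 CPM in 4E input, without overlap (log2 change -0.30, SE 0.20, and -0.15, SE 0.17, without OA replicate 1).

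The T cell marker list, which holds CD3E, CD3G, CD247, CD4 and CD28 among its 18 genes, summed to 1251 to 1687 CPM in OA input and 1744 to 2019 CPM in 4E input, and to 1525 to 1751 and 1816 to 2034 CPM in heavy. The stromal and endothelial list lay the other way, with 94.3 to 594 CPM in OA input and 44.2 to 60.8 CPM in 4E input. In heavy it summed to 84.6 to 533 and 31.1 to 65.4 CPM, and DCN and LUM were at 0 in all libraries. OA replicate 1 was the lowest OA library of this list in both fractions, at 94.3 and 84.6 CPM. OA replicates 2 and 3 read 251 and 594 CPM in input and 241 and 533 CPM in heavy. Myeloid markers summed to 77.4 to 122 CPM in OA heavy and 34.9 to 68.1 CPM in 4E heavy. The erythroid and platelet list summed to 83.2 to 410 CPM in OA input and 36.9 to 190 CPM in 4E input. In heavy it summed to 60.4 to 595 and 34.9 to 106 CPM. OA replicate 1 was the lowest OA library of this list too in both fractions, and it lay among the 4E libraries. An exact two-sided permutation test gave p = 0.1 for the stromal list in both fractions and for the myeloid list in heavy, the smallest p that 3 against 3 libraries allow, p = 0.2 for the myeloid list in input, and p = 0.2 and 0.3 for the erythroid list in input and heavy. The sums of the T cell list were not put to this test. The part of these marker lists in the levels of ZAP70 and LCK was not tested.

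No adaptor passed the threshold. LAT, the membrane scaffold that ZAP70 phosphorylates, read 20.2, 39.1 and 64.8 CPM in OA input and 39.1, 36.4 and 59.6 CPM in 4E input. Its heavy levels were 18.7, 39.3 and 47.7 CPM in OA and 34.2, 43.5 and 32.2 CPM in 4E. OA replicate 1 was the lowest library in both fractions, the opposite of CD3E, and the arms overlapped. The log2 change of 0.20 (SE 0.44) in input became -0.21 (SE 0.37) without that replicate, and that of 0.09 (SE 0.39) in heavy became -0.26 (SE 0.31).

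GRAP2 (GADS), which bridges LAT and SLP-76, read 39.6, 69.98 and 52.9 CPM in OA input and 80.4, 75.02 and 66.2 CPM in 4E input. Heavy levels were 38.3, 56.1 and 63.8 CPM in OA and 106, 70.3 and 66.3 CPM in 4E, with no overlap. Log2 changes were 0.48 (SE 0.31) in input and 0.63 (SE 0.28, adjusted p = 0.574 by edgeR) in heavy, and 0.25 (SE 0.30) and 0.42 (SE 0.26) without OA replicate 1. PLCG1, the phospholipase that makes the second messengers, was the gene of the list with the most counts. It was at 427 to 505 CPM in OA input and 517 to 668 CPM in 4E input, and at 449 to 611 and 647 to 738 CPM in heavy. The arms of PLCG1 did not overlap in either fraction, with log2 changes of 0.33 (SE 0.20) and 0.38 (SE 0.19). Without OA replicate 1 these were 0.26 (SE 0.17) and 0.25 (SE 0.16).

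The other adaptors overlapped between the arms. LCP2, which encodes SLP-76, had log2 changes of 0.33 (SE 0.25) in input and 0.26 (SE 0.23) in heavy. VAV1, an exchange factor that acts on the cytoskeleton, had values of 0.16 (SE 0.24) and 0.20 (SE 0.23). GRB2, which brings SOS1 to LAT, had values of -0.56 (SE 0.40) and -0.27 (SE 0.35).

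On the Ras and protein kinase C side, SOS1 and MALT1 marked the ends of the range. SOS1, an exchange factor that loads Ras, was the steadiest gene of the 35, at 54.6 to 72.9 CPM over all 12 libraries, a 1.34-fold range. RASGRP1, the exchange factor that diacylglycerol recruits, was at 130 to 209 CPM over all libraries, with log2 changes of 0.13 (SE 0.22) and 0.18 (SE 0.21). PRKCQ, protein kinase C theta, read 190, 242 and 198 CPM in OA input and 246, 214 and 146 CPM in 4E input. Heavy levels of PRKCQ were 192, 149 and 195 CPM in OA and 220, 200 and 184 CPM in 4E, and all groups overlapped.

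MALT1 and BCL10, which act together in the complex that leads to NF-kB, lay on opposite sides. MALT1 ranged from 47.8 to 120 CPM in OA input and from 23.9 to 53.0 CPM in 4E input, and from 49.0 to 106 and 24.9 to 52.3 CPM in heavy. Its log2 changes were -0.86 (SE 0.43) in input and -0.88 (SE 0.39, adjusted p = 0.574 by edgeR) in heavy, and -0.27 (SE 0.39) and -0.47 (SE 0.32) without OA replicate 1. BCL10 had values of 0.26 (SE 0.35) and 0.43 (SE 0.32), with no overlap in heavy, where OA was at 27.6 to 40.4 CPM and 4E at 43.9 to 55.4 CPM. Without OA replicate 1 the BCL10 values were 0.17 (SE 0.39) and 0.24 (SE 0.32).

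In the calcineurin, NFAT and NF-kB branch, PPP3CA, NFATC1 and RELA had higher mean levels in 4E in both fractions, none past the threshold. PPP3CA, a catalytic subunit of calcineurin, read 86.8, 99.3 and 106 CPM in OA input and 106, 100 and 141 CPM in 4E input. In heavy it read 62.7, 83.0 and 102 CPM in OA and 113, 136 and 109 CPM in 4E, with no overlap (log2 change 0.54, SE 0.23, adjusted p = 0.574 by edgeR). PPP3CB, the related subunit, was at 60.2 to 164 CPM in OA input, with the top value in replicate 1, and at 70.5 to 81.7 CPM in 4E input. Its log2 changes were -0.43 (SE 0.37) in input and -0.35 (SE 0.34) in heavy, and without OA replicate 1 their sign turned, to 0.20 (SE 0.30) and 0.05 (SE 0.25). For PPP3CA the change in heavy was 0.35 (SE 0.21) without that replicate.

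NFATC1, a transcription factor that calcineurin lets into the nucleus, read 61.0, 99.3 and 76.8 CPM in OA input and 78.2, 120 and 124 CPM in 4E input. Heavy levels were 68.0, 86.9 and 83.1 CPM in OA and 109, 97.6 and 80.6 CPM in 4E. The arms overlapped in both fractions (log2 changes 0.47, SE 0.27, and 0.28, SE 0.25). Without OA replicate 1 the changes of NFATC1 were 0.27 (SE 0.27) and 0.15 (SE 0.23). NFATC2, its relative, read 83.6, 66.7 and 81.9 CPM in OA input and 102, 105 and 86.1 CPM in 4E input, without overlap. In heavy NFATC2 read 84.6, 70.7 and 56.1 CPM in OA and 62.2, 67.8 and 66.3 CPM in 4E, with overlap. NFATC3 had log2 changes of -0.26 (SE 0.30) in input and -0.37 (SE 0.29) in heavy.

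NFKB1, which encodes the p105 precursor of an NF-kB subunit, read 187, 238 and 196 CPM in OA input and 196, 118 and 199 CPM in 4E input. Its heavy levels were 197, 191 and 171 CPM in OA and 207, 256 and 239 CPM in 4E. The heavy arms did not overlap, and the log2 changes were -0.27 (SE 0.22) in input and 0.33 (SE 0.21) in heavy. RELA, the p65 subunit, was at 97.9 to 140 CPM in OA input and 141 to 178 CPM in 4E input, so that the arms were separated by a narrow gap (log2 change 0.45, SE 0.23), and in heavy its log2 change was 0.30 (SE 0.22). Without OA replicate 1 the changes of RELA were 0.30 (SE 0.22) in input and 0.12 (SE 0.19) in heavy.

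None of the 8 brakes passed the threshold, and their median log2 changes were -0.06 in input and 0.07 in heavy, where all tested genes had -0.05 and -0.0023. CSK, which phosphorylates the inhibitory tail of LCK, had log2 changes of -0.14 (SE 0.26) in input and -0.30 (SE 0.25) in heavy. The phosphatases PTPN6 (SHP-1) and PTPN22 stood at -0.14 (SE 0.26) and -0.10 (SE 0.31) in input, and at -0.09 (SE 0.24) and 0.30 (SE 0.28) in heavy. CBL and CBLB, ubiquitin ligases that lead to removal of active signalling proteins, had values of -0.20 (SE 0.21) and -0.01 (SE 0.21) in input and of -0.08 (SE 0.20) and 0.36 (SE 0.20) in heavy. DGKA and DGKZ, which consume diacylglycerol, stood at 0.02 (SE 0.23) and 0.41 (SE 0.26) in input and at 0.12 (SE 0.22) and 0.12 (SE 0.24) in heavy. UBASH3A, a regulator that dampens receptor signalling, had values of 0.19 (SE 0.34) and 0.01 (SE 0.29).

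The distance of OA replicate 1 from the other OA libraries was measured for each of the 35 genes. Its level over the mean of OA replicates 2 and 3 was 6.19 in input and 3.79 in heavy for CD3E, 6.39 and 2.31 for CD3G (where OA input replicates 2 and 3 had 0 and 4 counts), 2.04 and 2.33 for CD28, and 2.37 and 2.01 for MALT1. PPP3CB had ratios of 2.49 and 1.98 and PTPRC of 1.76 and 1.75, while LAT had 0.389 and 0.431 and GRAP2 0.64 in both. Ratios above 2 were found in 6 of the 35 genes in input (CD4 included, at 2.90 with few counts), where 15.6% of all genes had one, and in 5 of the 35 in heavy, where 8.63% did. The input and heavy libraries that share this label may share their cells, so these are not independent measurements. Without OA replicate 1 in both fractions 34 of the 35 genes were still tested, CD4 falling under the count minimum. Then 22 were higher and 12 lower in 4E input (median log2 change 0.14), and 25 were higher and 9 lower in heavy (median 0.13), where 51.0% and 51.4% of all 6575 genes tested were higher. edgeR called 0 of the 34 in either, against 0.259% of all genes in input and 0.122% in heavy. The sign of the change turned for 9 of the 34 in input and for 7 in heavy. This omission was chosen after the data were seen. It left OA replicates 2 and 3, whose stromal and erythroid marker sums lay above those of OA replicate 1 and of every 4E library in both fractions. The part of these marker sums in the values without OA replicate 1 was not tested.

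**Figure D3:**
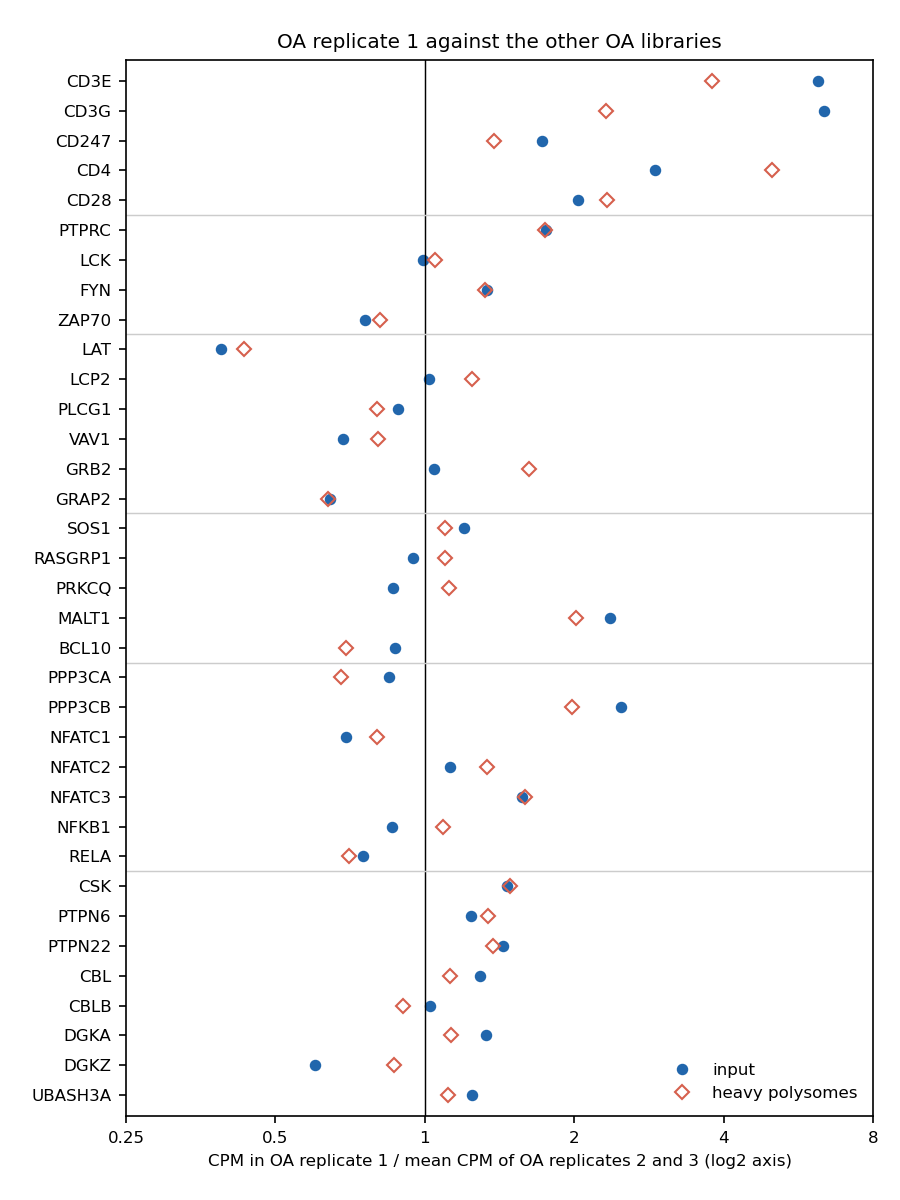
Level of each gene in OA replicate 1 over the mean of OA replicates 2 and 3, in input and in heavy, on log axes. CD3E lies at 6.19 and 3.79 and LAT at 0.389 and 0.431, while the median of the 35 genes is 1.13 in both fractions.

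Heavy polysome RNA was compared with input within each arm to ask how far each mRNA was found among those with many ribosomes, relative to other genes. In OA, 16 of the 35 genes were higher and 19 lower in heavy (median log2 difference -0.01, all genes 0.0056). Of all genes 50.7% were higher there. edgeR called 0 of the 35, where 0.683% of all genes were called, 0 had an unadjusted p under 0.05, where 2.18% of all genes did, and DESeq2 called 0, against 0.777% of all genes. In 4E, 24 were higher and 11 lower (median 0.11, all genes 0.04), where 54.0% of all genes were higher. Without CD4 the values were 23, 11 and 0.08. In 4E edgeR called 0 of the 35, where 0.938% of all genes were called. Here 2 of the 35, NFATC2 and CD3G, had an unadjusted p under 0.05, where 5.59% of all genes did, and DESeq2 called 0, against 1.02% of all genes. These values are relative, because input held far more small noncoding RNA: without composition scaling the median of all genes was 1.24 in OA and 1.97 in 4E. The library names of input and heavy share a stem (OA1 and the like), which may mark 1 sample. In a fit with that stem as a replicate block, edgeR called 90 of all genes in OA and 109 in 4E, and 0 of the 35 in either.

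The smallest p in OA belonged to UBASH3A, CD247 and PRKCQ. UBASH3A read 32.1, 26.04 and 25.6 CPM in OA input and 41.1, 39.3 and 34.8 CPM in OA heavy, the only gene of the 35 whose OA fractions did not overlap. Its log2 difference was 0.44 (SE 0.30), and adjusted p by edgeR was 0.9999. In 4E it read 36.9, 40.9 and 19.9 CPM in input and 44.2, 33.6 and 38.5 CPM in heavy. CD247 and PRKCQ differed by 0.44 (SE 0.40) and -0.23 (SE 0.22) in OA.

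In 4E, every heavy library was below every input library for NFATC2 and CD3G, and above every input library for CD247 and NFKB1. NFATC2 differed by -0.58 (SE 0.24, adjusted p = 0.780 by edgeR) and CD3G by -1.68 (SE 0.72, adjusted p = 0.810). Without composition scaling these became 1.36 and 0.25, both below the median of all genes. NFKB1 differed by 0.45 (SE 0.22, adjusted p = 0.895) and CD247 by 0.71 (SE 0.44). Separation on the higher side was thus found for 2 of the 35 genes, against 7.93% of all genes, and on the lower side for 2, against 5.79%. In OA it was found for 1 and 0, against 4.19% and 3.36%.

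The difference between arms in this fraction-to-fraction value was tested as an interaction. edgeR and DESeq2 called 0 of the 35 and 0% of all genes, and 1 of the 35, CD3G, had an unadjusted p under 0.05, as did 2.13% of all genes. With the replicate block 10 of all genes and 0 of the 35 were called. CD3G had the lowest interaction, -2.20 (SE 0.96, adjusted p = 0.9996 by edgeR), and NFKB1 one of 0.60 (SE 0.31). For CD3G the low OA input libraries and the 257 counts in all set how precisely this could be measured, and the value without OA replicate 1 was -3.40. Over the 35 genes 23 interactions were above and 12 below 0, with a median of 0.08 against 0.05 over all genes (22, 12 and 0.07 without CD4). Of all genes 54.2% had an interaction above 0, and 19 of the 35 lay above the median of all genes.

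**Figure D4:**
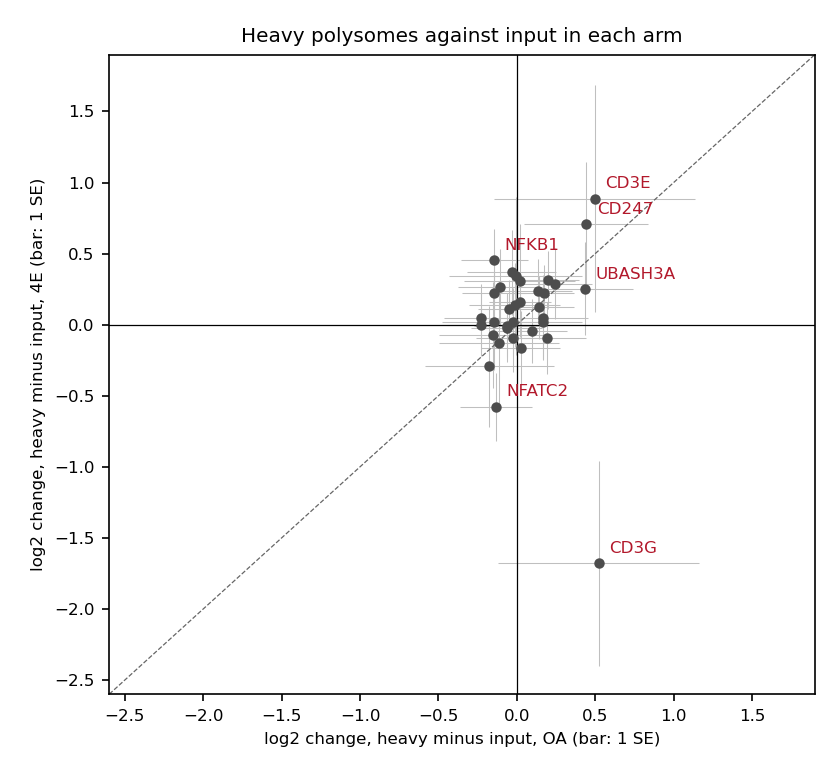
Log2 difference of heavy polysome RNA minus input for 34 of the 35 genes in OA on the horizontal axis and in 4E on the vertical axis, from the edgeR fit; CD4 is left out. Most points lie within 0.5 of 0 on both axes, and CD3G stands lowest in 4E at -1.68.

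The standard errors of the log2 changes of the 35 genes had a median of 0.26 in input and 0.24 in heavy for 4E against OA. The medians of all tested genes were 0.48 and 0.41. These sets differ in counts, since a filter of 50 counts kept 32 of the 35 genes but 3715 of all 7465. The standard errors were not compared at equal counts. The widest ranges over the 12 libraries belonged to CD3E at 16.9-fold, CD247 at 6.78-fold, CD28 at 5.99-fold and MALT1 at 5.02-fold, apart from CD3G and CD4, which were at 0 in some libraries. FYN at 1.56-fold and LCK at 1.60-fold were next to SOS1 at the steady end.

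Beyond the 35 genes, 119 further genes of the pathway were listed by role, of which 118 were in the table and 100 were tested. edgeR called 0 of the 100 in each of the 5 comparisons. At an unadjusted p under 0.05 there were 20 of the 100 in input and 22 in heavy, where 10.5% and 8.21% of all genes did so. There were 2 in the interaction, 3 between OA fractions and 7 between 4E fractions, where the shares of all genes were 2.13%, 2.18% and 5.59%. Without OA replicate 1 in both fractions 99 were tested. Of these, 10 in input and 18 in heavy had an unadjusted p under 0.05, where 8.88% and 5.73% of all genes did. The median log2 change of the 100 was 0.09 in input and 0.03 in heavy. The smallest p in input belonged to NDFIP1, an activator of ubiquitin ligases, with 106 ± 24.4 CPM in OA input and 51.0 ± 6.27 CPM in 4E input (log2 change -1.07, SE 0.30, adjusted p = 0.353 by edgeR), and to PPP3CC, the third catalytic subunit of calcineurin, at 43.3 ± 4.34 and 16.2 ± 3.24 CPM (SD, n = 3, log2 change -1.42, SE 0.40). In heavy they belonged to CALM3, a calmodulin gene, with 91.0 ± 18.5 CPM in OA heavy and 45.2 ± 12.1 CPM in 4E heavy (log2 change -1.02, SE 0.26, adjusted p = 0.569), and DUSP5, a phosphatase of the MAP kinase ERK, at 245 ± 33.98 and 387 ± 49.3 CPM (log2 change 0.66, SE 0.20).

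CALM3 and PPP3CC also had the smallest p of these genes in the interaction, at -0.92 (SE 0.38) and 1.20 (SE 0.51). Between OA fractions they were TESPA1, an adaptor in the calcium response, at -0.75 (SE 0.29), and the phosphatase PTPN2 at -0.65 (SE 0.27). Between 4E fractions they were PPP3CC at 1.27 (SE 0.40) and CD5, a surface brake on receptor signalling, at 1.36 (SE 0.42).

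Because 4EGI-1 acts on cap-dependent initiation, the 5′ leaders of these mRNAs were described from the GENCODE vM21 annotation, which is not the build named by the submitters, with 1 transcript per gene. The median leader of the 35 genes was 201 bases long with 68.2% G and C, against 189 bases and 66.2% over 6724 tested genes with a leader, and the median coding length was 1854 against 1581 bases. The Spearman correlation across the 35 genes between leader length and the interaction was 0.06, and between the G and C share of the leader and the interaction -0.31. Over the 6724 genes the same values were -0.01 and -0.02. These correlations are across genes, which share their libraries and are not independent replicates.

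All 35 genes appear in the authors' deposited table of fold changes, whose inhibitor columns are named OAE. Of these, 2 had an unadjusted p under 0.05 for transcription in the authors' deposited table, CD28 with a log2 fold change of -1.08 (p = 0.0435) and CD3G with 2.16 (p = 0.0479), and 0 for translation. Both were classed there as changed in transcription alone, and 0 of the 35 had an adjusted p under 0.05 in the authors' deposited table.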

How the data were processed

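RNA sequencing of sorted CD4+ T cells gave 12 libraries in 4 groups of 3. The authors deposited read counts per gene symbol, with 0 columns of other samples. The file's name calls the counts normalised, but they are whole numbers with a different total in each library and were handled as raw counts. The submitters' processing notes name Bowtie and the mouse build mm9, with no version of the aligner and no counting tool. Per the labels' protocols the library preparation was stranded with polyA selection. How that selection relates to the small noncoding RNA share of 33.6% to 78.3% in the input libraries was not tested. Between 16.4% and 31.4% of a library's reads lay in no gene or were ambiguous, and these were left out.

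The test was edgeR's quasi-likelihood test on genes that reached 10 counts in 3 or more libraries (edgeR 4.0.16, R 4.3.3, TMM, glmQLFit and glmQLFTest, 1 fit over 12 libraries, Benjamini-Hochberg adjustment over 7465 genes, threshold 0.05), with DESeq2 1.42.0 as an alternative. The procedure was tested on simulated data. Marker sums, other than those of the T cell list, were compared between arms with exact permutation tests. A second deposited table holds the authors' log2 changes between arms and their p-values, raw and adjusted, and it entered no test.

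Symbols were matched to mouse RefSeq without regard to case, for 35 of 35 genes. No 2 libraries of a group agreed within sampling noise. The 35 genes, the further pathway genes and the marker lists were chosen with earlier results of these data known. Levels in every library are given for the 3 genes of the list with the smallest p in each comparison and for CD3E, CD4, LCK, PTPRC, ZAP70, LAT and NFATC1. Further pathway genes are named as the 2 with the smallest p in each comparison. Some results are not reported here.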

Additional observations from a re-analysis of the deposited data

How the results depend on the processing

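No listed gene passed the threshold in any of the 5 comparisons under any alternative tried except the omission of composition scaling. That omission called 26 of the 35 between OA fractions and 34 between 4E fractions, together with 3054 and 6035 of all genes, and 1 gene in input and 1 in heavy for 4E against OA. It moved the median of the 35 genes to -0.88 in input, -0.058 in heavy, 0.81 in the interaction, 1.28 in OA and 2.05 in 4E, while the median of all genes moved to -0.93, -0.18, 0.73, 1.24 and 1.97. Under it 17, 7, 11, 19 and 11 of the 35 turned sign in the same order. Among the genes whose levels are given in every library, for the comparisons that named them, these were ZAP70 (-0.21), LCK (-0.61), LAT (-0.46) and NFATC1 (-0.30) in input, LAT (-0.080) in heavy, PRKCQ (1.08) in OA, and NFATC2 (1.36) and CD3G (0.25) in 4E.

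Over all genes, edgeR called 0, 0, 0, 51 and 70 in the order input, heavy, interaction, OA fractions and 4E fractions. Without a count filter 113, 50 and 4 were called in the first 3 and 80 between OA fractions. A filter of 50 counts called 32 and 43 between fractions of OA and 4E, and a fit on the groups compared alone called 10 between OA fractions. DESeq2 called 3 in input and 1 in heavy. No label says that libraries with 1 number are 1 sample, and the deviations of input and heavy of 1 arm and number correlated at 0.02 to 0.67, with 4 of 6 above 0.1, so the main values have no block. With a replicate block by number 71 and 27 genes were called in input and heavy, and with a replicate block by arm and number 10, 90 and 109 in the interaction and between fractions of OA and 4E. ZAP70 came closest of the 35 under the block by number, with adjusted p = 0.132 in input and 0.121 in heavy by edgeR.

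Leaving out 1 library at a time called 0 to 14 genes in input and 0 to 4 in heavy. The median of the 35 genes then ran from -0.061 to 0.14 in input and from -0.015 to 0.15 in the interaction. In input the log2 change ran from -2.02 to 0.45 for CD3E and from -0.21 to 0.69 for LAT. In heavy it ran from -1.25 to 0.20 for CD3E, from -0.31 to 0.16 for PTPRC and from -0.25 to 0.36 for LAT, and that of CD4 from -0.86 to 0.19. Over these genes only, the sign of CD3E turned without OA replicate 1 of the fraction compared, and that of PTPRC did so in heavy alone. In input PTPRC stayed negative, from -0.69 to -0.20. The sign of LAT turned without OA replicate 1 of the fraction compared and also without 4E input replicate 3 or 4E heavy replicate 2. That of CD4 in heavy turned without 4E heavy replicate 2. Without OA replicate 1 in both fractions, 17 genes were called in input and 8 in heavy, the median in input was 0.14, and 9 of 34 and 7 of 34 signs turned. Of the genes named above, CD3E and LAT stood at 0.45 and -0.21 in input, and CD3E, PTPRC and LAT at 0.17, 0.14 and -0.26 in heavy. The cause of these shifts was not tested. Counts of CD4 and CD3G limit what can be said of them.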
